A study of Mus musculus with 15 samples.

Results

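The comparison set the heterozygous cells that received R525H or wild-type DDX41, 6 libraries, against the heterozygous cells that received G173R or the empty vector, also 6 libraries. These are 12 of the 15 libraries of the series, grouped by their titles. The pairing of the 4 groups was proposed from the expression of these same libraries. The values that set the pools apart are therefore given as a description, without p-values. Counts of genes called in that contrast or in a comparison across the pools are part of the description. P-values are printed only for differences within a pool, for a difference of differences and for the wild-type line. A pairing proposed from expression can favour small differences within a pool, so p-values there are not free of that choice.

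The cells are mouse hematopoietic progenitors of fetal liver, immortalized with Hoxb8 and expanded in medium with β-estradiol. The R525H group was the hi-Ddx41+/- line, with 1 copy of Ddx41 knocked out, infected with a retroviral vector for DDX41 carrying the R525H substitution. Per the labels, the DDX41 group was that line with the vector for wild-type DDX41, the G173R group had the vector for DDX41 with G173R, and the empty group had the vector without DDX41. The remaining 3 libraries are the hi-Ddx41+/+ line with empty vector, called the wild-type line. Infection lasted 2 days in every group, and GFP+ cells were then sorted. The labels name 1 line of each genotype, so the knockout and any other difference between the lines cannot be told apart. The labels do not state whether the 3 libraries of a group are separate cultures, and a p-value here covers the spread between these libraries alone, which may be technical.

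DDX41 is a DEAD-box RNA helicase that associates with the spliceosome and takes part in innate sensing of nucleic acids. Inherited variants of human DDX41 predispose to myeloid neoplasms, and R525H, in the helicase part of the protein, is the change most often acquired on the other copy. The genes described here include hosts of small nucleolar RNAs, whose introns hold the small RNAs and whose spliced RNA is degraded when it is translated, genes of amino acid supply, and a gene of the last step of cell division.

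For 12 of the 15 libraries the file name and the title give different groups. By the codes in the file names the R525H libraries are coded WT, the DDX41 libraries B, the G173R libraries E and the empty libraries A. The same libraries are together under either reading, but the labels do not say what A and B stand for. Which vector each library carried, and so what each pool is, rests on the titles. Total expected counts ran from 22104066 to 49145873 in R525H and DDX41 and from 27743681 to 35170636 in G173R and empty. Estimated fragment lengths had a median of 259.2 bases (240.8 to 267.3) in R525H and DDX41 and 250.8 bases (246.1 to 255.7) in G173R and empty. The second range lay inside the first. Mitochondrial genes took 2.28 to 2.91 percent of counts in R525H and DDX41 and 2.22 to 2.99 percent in G173R and empty. The first principal component, 40.7 percent of the variance, set the libraries numbered 3 apart from those numbered 1 and 2, and library 1 of the empty group stood apart on the second (11.7 percent). Of 7 progenitor markers 6 were above 1 TPM, among them Cd34 at 500.79 to 652.87 TPM, and Hoxa9 was at 0 to 0.01 TPM. The macrophage marker Adgre1 reached 43.37 to 82.2 TPM, and the 4 macrophage markers summed to 68.8 to 98.8 TPM in R525H and DDX41 and 58.1 to 108 TPM in G173R and empty. Alb and Ttr of hepatocytes, Col1a1 and Col3a1 of stroma and Hba-a1 of red cells were at 0. Other markers of these types were detected at a low level. Hbb-bt of red cells was at 0.57 to 3.12 TPM and Hbb-bs at 0.09 to 1.54 TPM. Pecam1, listed for stroma and endothelium, was at 1.76 to 4.95 TPM and Afp of hepatocytes at 0.07 to 0.83 TPM. In bulk RNA, fewer cells of a type and less RNA per cell cannot be told apart.

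Ddx41 itself did not separate the pools. Its level was 28.8 to 35 CPM (counts brought to the same total in every library) in R525H and DDX41 and 27.6 to 36.5 CPM in G173R and empty, and the ranges overlapped almost wholly. R525H minus DDX41 was -0.05 on the log2 scale (95 percent interval -0.19 to 0.09), and G173R minus empty was 0.12 (-0.02 to 0.26). DDX41 minus empty was 0.12 (-0.02 to 0.26) and R525H minus empty 0.07 (-0.07 to 0.21). A rise of the Ddx41 count with a vector was thus not detectable in any of the 3 groups given DDX41, and whether reads of the vectors' DDX41 would be assigned to this mouse gene was not tested. The wild-type line lay at 55.6 to 63.4 CPM, with a log2 difference of 0.88 (SE 0.05, edgeR adjusted p = 4.71e-09) as wild-type line minus the mean of the 4 heterozygous groups.

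With the replicate number as a block and the pool as the only other term, 15 of 14189 genes lay past an adjusted p of 0.05, 8 of them higher and 7 lower in R525H and DDX41 (0.106 percent of the genes tested, 0.0564 percent higher and 0.0493 percent lower). Because the pools were chosen on these data, nothing is read from that share. The higher genes were Igf2r, Cth, Saa3, Snhg1, Gas5, Clk3, Asns and Hnrnpa1, and the lower ones Chchd1, Cep55, Fahd2a, Epha7, Cd33, Ankrd13a and Timm44. In each of the 3 replicate numbers, both libraries of 1 pool lay beyond both of the other for all 15, a pattern that 570 genes (4.02 percent) showed. For 10 of the 15 the 6 libraries of 1 pool did not overlap the other 6, as for 103 genes (0.726 percent) in all. The 5 that overlapped were Cth, Asns, Chchd1, Epha7 and Timm44. The 3 members nearest to the threshold were Snhg1, Cd33 and Hnrnpa1, with log2 differences of 0.55, -0.30 and 0.20. Just outside it lay Tapt1 (log2 0.29), the prostaglandin synthase gene Ptgs2 (0.38) and Nwd1 (-0.41).

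**Figure D1:**
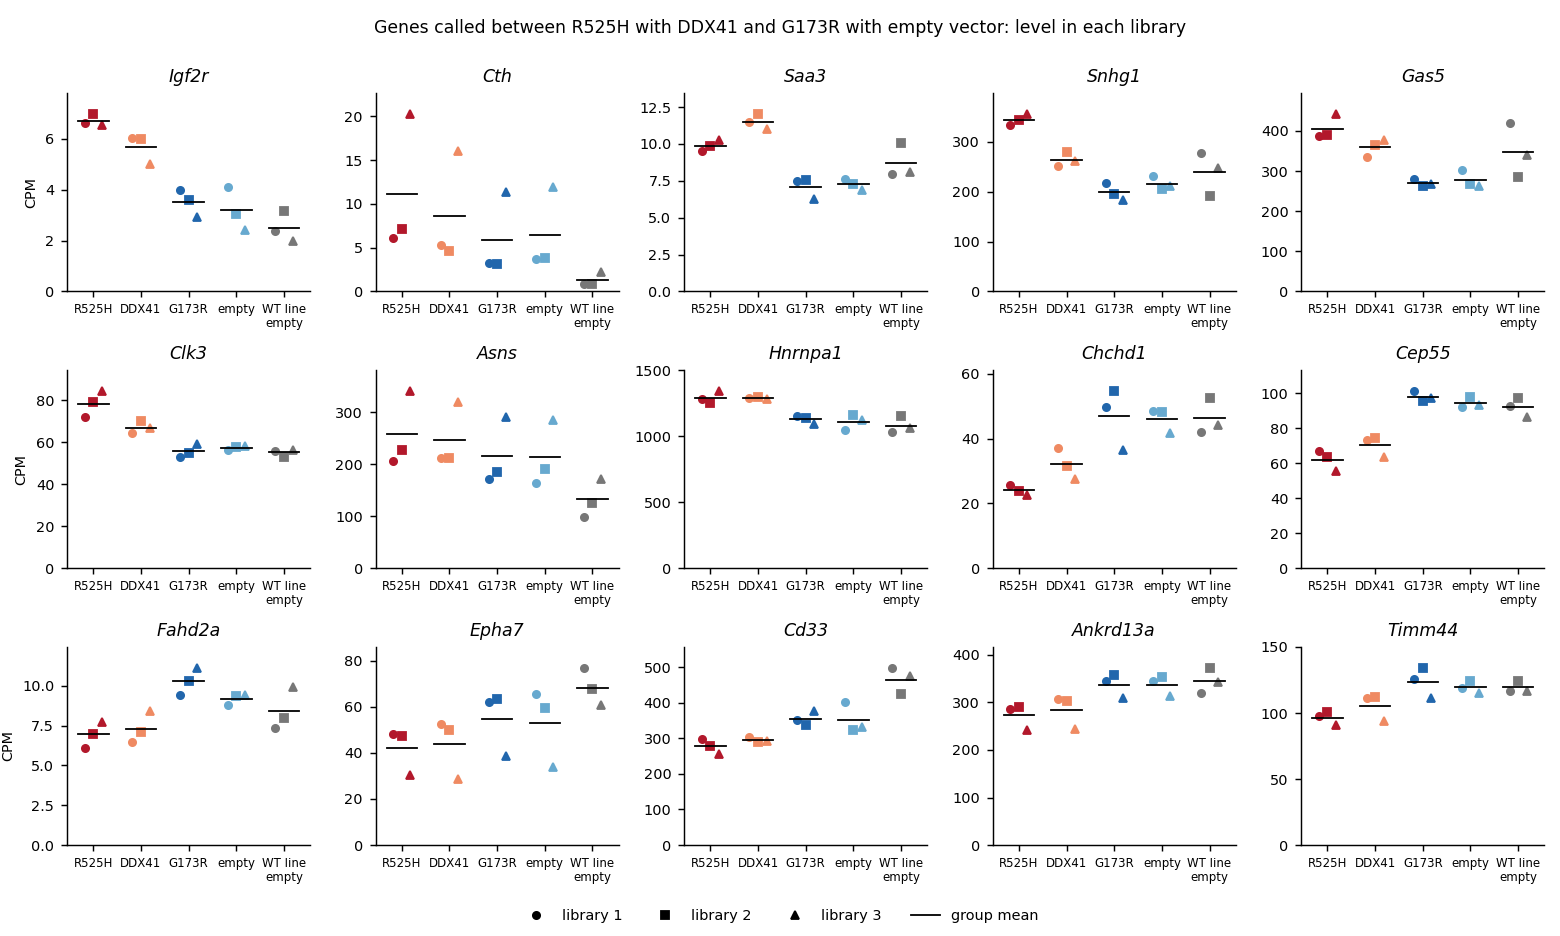
CPM of each of the 15 genes by library (vertical axes from 0), for R525H, DDX41, G173R and empty in the heterozygous line and for the wild-type line with empty vector; symbols mark libraries 1 to 3 and bars the group means. The 8 genes that were higher in R525H and DDX41 come first; in Gas5, all R525H and DDX41 libraries lay above all G173R and empty libraries.

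The most abundant of the separating noncoding RNAs were 2 hosts of small nucleolar RNAs. Gas5 had 384, 385 and 438 CPM in R525H and 332, 360 and 376 CPM in DDX41, against 278, 259 and 267 CPM in G173R and 303, 267 and 262 CPM in empty. The log2 difference between pools was 0.48 (SE 0.06), no library of one pool entered the range of the other, and R525H lay above DDX41 in each number. Snhg1 had 331, 339 and 353 CPM in R525H and 248, 276 and 261 CPM in DDX41, against 215, 193 and 183 CPM in G173R and 231, 203 and 211 CPM in empty (log2 0.55, SE 0.09). Here the 3 R525H libraries also lay above the 3 DDX41 libraries, and Snhg1 was the single gene of the 15 that differed between these groups (log2 0.38, SE 0.07, edgeR adjusted p = 0.0298). Of 14 host genes tested, 10 were higher and 4 lower in R525H and DDX41, with 2 called and a median log2 of 0.07, where all genes had a median of -0.01 and 47 percent of them were higher. The median over the list was 0.16 for R525H minus G173R and 0.02 for DDX41 minus empty. Not every host followed, since Snhg8 lay at 26.1 to 33.8 CPM in R525H and DDX41 and 28.4 to 41.4 CPM in G173R and empty.

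The 250 bases before the RefSeq start of Gas5 (GRCm38.p6, chr1:161034916-161035165, + strand) are shown because they hold, in capitals, the motif TGACGTCA, the palindrome known as the cyclic AMP response element, 46 bases before the start.
Gas5: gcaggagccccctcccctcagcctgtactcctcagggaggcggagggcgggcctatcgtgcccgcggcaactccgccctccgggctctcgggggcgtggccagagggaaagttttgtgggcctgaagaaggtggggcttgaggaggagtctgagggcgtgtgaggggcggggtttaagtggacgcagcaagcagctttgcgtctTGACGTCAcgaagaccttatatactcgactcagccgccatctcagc
On either strand this motif was found in 1.55 percent of 32851 RefSeq windows of this length, and in 2 of the 14 separating genes that had a window (Gas5 and Fahd2a). A match describes the letters and does not show binding.

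Asns, Cth and Slc7a11, which supply asparagine, cysteine and cystine, were higher in R525H and DDX41 in every replicate number. Asns, asparagine synthetase, had 205, 225 and 338 CPM in R525H and 209, 209 and 318 CPM in DDX41, against 171, 183 and 289 CPM in G173R and 164, 190 and 283 CPM in empty. Its log2 difference was 0.24 (SE 0.04), and the pools overlapped because libraries numbered 3 were highest in all 4 groups. Cth, which makes cysteine from cystathionine, had 6.1, 7.01 and 20.1 CPM in R525H and 5.24, 4.59 and 16 CPM in DDX41, against 3.21, 3.1 and 11.3 CPM in G173R and 3.71, 3.84 and 11.8 CPM in empty (log2 0.69, SE 0.11). Slc7a11, the cystine transporter, had 150, 152 and 247 CPM in R525H and 129, 132 and 196 CPM in DDX41, against 103, 107 and 167 CPM in G173R and 119, 119 and 178 CPM in empty. It was not among the 15 (log2 0.34) and was called in the fit with 4 groups. It also differed within the pool, by 0.25 between R525H and DDX41 (SE 0.05, edgeR adjusted p = 0.0311). In the list of 19 unfolded protein and integrated stress genes, 13 were higher and 6 lower in R525H and DDX41, with Asns the only one called and a median log2 of 0.04.

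The motif TGATGNAA, an amino acid response element through which ATF4 acts, is in capitals in the 250 bases before the RefSeq starts of Asns (GRCm38.p6, chr6:7693210-7693459, - strand) and Slc7a11 (chr3:50443614-50443863, - strand). These windows are shown because they hold the motif and both genes lay on the same side of the split. Cth lay on that side too and is not among the genes with a match. In Slc7a11, which is not one of the 15, the second match is on the opposite strand.
Asns: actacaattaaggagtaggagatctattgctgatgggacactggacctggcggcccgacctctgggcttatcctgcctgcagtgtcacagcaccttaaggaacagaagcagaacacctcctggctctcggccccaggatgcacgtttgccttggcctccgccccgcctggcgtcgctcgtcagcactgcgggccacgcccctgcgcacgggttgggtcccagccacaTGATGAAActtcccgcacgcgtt
Slc7a11: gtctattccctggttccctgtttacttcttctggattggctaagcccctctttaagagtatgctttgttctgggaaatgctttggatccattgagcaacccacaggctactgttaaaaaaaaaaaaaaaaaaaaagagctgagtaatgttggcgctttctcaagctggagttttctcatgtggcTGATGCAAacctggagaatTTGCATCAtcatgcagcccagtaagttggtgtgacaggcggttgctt
On either strand the motif was found in 3.45 percent of the windows, and Asns was the only one of the 14 separating genes with a window that held it.

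Cep55, the midbody protein that recruits the abscission machinery at the end of cytokinesis, headed the lower genes by rank. It had 66.2, 62.6 and 55.3 CPM in R525H and 72.7, 73.7 and 63.3 CPM in DDX41, against 100, 94.4 and 96.6 CPM in G173R and 91.9, 97.1 and 92.7 CPM in empty. The log2 difference was -0.54 (SE 0.06), with a gap between the highest library of the first pool, 73.7 CPM, and the lowest of the second, 91.9 CPM. Of 27 cytokinesis genes tested, 17 were higher and 10 lower, and Cep55 was the 1 called. The list had a median log2 of 0.01. Of 23 genes of G2 and mitosis, 12 were higher and 11 lower and none was called.

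Chchd1, a protein of the mitochondrial ribosome, and Timm44, which anchors the import motor at the mitochondrial inner membrane, were both lower in R525H and DDX41. Chchd1 had 25.4, 23.5 and 22.6 CPM in R525H and 36.8, 31.2 and 27.3 CPM in DDX41, against 49.3, 54.1 and 36.2 CPM in G173R and 48.5, 48 and 41.5 CPM in empty (log2 -0.73, SE 0.10). The pools overlapped only where DDX41 library 1 (36.8 CPM) exceeded G173R library 3 (36.2 CPM). Timm44 averaged 100 CPM in R525H and DDX41 and 121 CPM in G173R and empty (log2 -0.27, SE 0.04). Of the 13 protein-coding genes of the mitochondrial genome itself, 10 were higher and 3 lower and none was called.

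Of the remaining called genes, Igf2r, the receptor for IGF2 and mannose 6-phosphate, had 6.56, 6.89 and 6.49 CPM in R525H and 5.98, 5.96 and 4.98 CPM in DDX41, against 3.97, 3.56 and 2.91 CPM in G173R and 4.1, 3.03 and 2.41 CPM in empty. Its log2 difference of 0.89 (SE 0.11) was the largest of the 15, at a low level. Saa3, an acute-phase serum amyloid, had 9.45, 9.74 and 10.2 CPM in R525H and 11.4, 11.9 and 10.9 CPM in DDX41, against 7.43, 7.47 and 6.24 CPM in G173R and 7.65, 7.21 and 6.82 CPM in empty (log2 0.57, SE 0.08). Of the 8 higher genes, Saa3 was the one whose DDX41 libraries all lay above the R525H libraries. Cd33, a sialic acid-binding receptor of myeloid cells, was lower, at 255, 289 and 301 CPM (lowest, median, highest) in R525H and DDX41 and 320, 340 and 401 CPM in G173R and empty. Epha7, an ephrin receptor, was at 28.6, 47.4 and 51.9 CPM in R525H and DDX41 and 33.5, 60.3 and 65.6 CPM in G173R and empty, and its pools overlapped. Ankrd13a, an ankyrin repeat protein that binds ubiquitin on internalized receptors, was at 240, 286 and 304 CPM in R525H and DDX41 and 307, 343 and 354 CPM in G173R and empty, without overlap.

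Clk3, a kinase of the SR splicing proteins, and Hnrnpa1, an RNA-binding repressor of splice sites, were higher in R525H and DDX41. Clk3 had 71.3, 78.3 and 83.6 CPM in R525H and 63.6, 69.4 and 66.3 CPM in DDX41, against 52.5, 54.3 and 58.7 CPM in G173R and 56.1, 57.5 and 58 CPM in empty (log2 0.36, SE 0.06). Hnrnpa1 was at 1240 to 1330 CPM in R525H and DDX41 and 1050 to 1150 CPM in G173R and empty (log2 0.20, SE 0.03), and neither gene overlapped between pools. Hnrnpa1 has many processed copies in the genome, so the assignment of its reads is uncertain. Of 21 SR proteins and CLK kinases, 13 were higher, 8 were lower and Clk3 was the 1 called. Of 35 spliceosome genes 24 were higher and none was called. Among 47 DEAD and DEAH box helicase genes 41 were higher in R525H and DDX41, none was called, and the median log2 was 0.05.

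No fixed list had more than 2 called members. All 23 histone genes were lower in R525H and DDX41 with none called, a median log2 of -0.31, and medians of -0.24 for R525H minus G173R and -0.30 for DDX41 minus empty. Their summed level overlapped widely between pools, from 3301 through 4319 to 5514 CPM in R525H and DDX41 and from 3424 through 4861 to 6556 CPM in G173R and empty. By number the sum was 4566, 4615 and 3657 CPM in DDX41 and 4336, 5001 and 5145 CPM in empty. DDX41 was thus above empty in number 1, and the gap was widest in number 3. R525H lay below G173R in each number. Histone genes are near-identical copies, so their counts are uncertain one by one. All 9 lymphoid genes were lower (median -0.20), with medians of -0.35 for R525H minus G173R and -0.04 for DDX41 minus empty. Their summed level was 82.39 to 86.98 CPM in R525H and 97.75 to 110.9 CPM in DDX41, against 102.2 to 110.5 CPM in G173R and 100.2 to 110.4 CPM in empty, so only R525H lay apart. Erythroid and megakaryocyte genes were uneven by median, with 11 of 13 lower (median -0.19) and medians of -0.55 for R525H minus G173R and -0.02 for DDX41 minus empty. Their summed level overlapped, at 1009 to 1052 CPM in R525H and 1021 to 1027 CPM in G173R. It was 992.4 to 1059 CPM in DDX41 and 1028 to 1063 CPM in empty. Of 14 stem and progenitor genes 13 were lower (median -0.07), while 59 of 79 ribosomal protein genes were higher (median 0.05), also with uncertain assignment among copies. The 35 ribosome biogenesis genes lay apart in the 2 comparisons that make up the split. The median was 0.15, with 35 higher, for R525H minus G173R, and it was -0.06, with 4 higher, for DDX41 minus empty. Neutrophil granule genes had medians of 0.22 for R525H minus G173R and -0.28 for DDX41 minus empty. Their summed level was 1347 to 2898 CPM in R525H and 1315 to 2950 CPM in G173R, almost the same range. It was 1063 to 2411 CPM in DDX41 and 1513 to 2952 CPM in empty. The neutrophil marker sum was 8.46 to 17.4 TPM in R525H and DDX41 and 6.55 to 15.6 TPM in G173R and empty. The part of these markers in the differences was not tested.

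**Figure D2:**
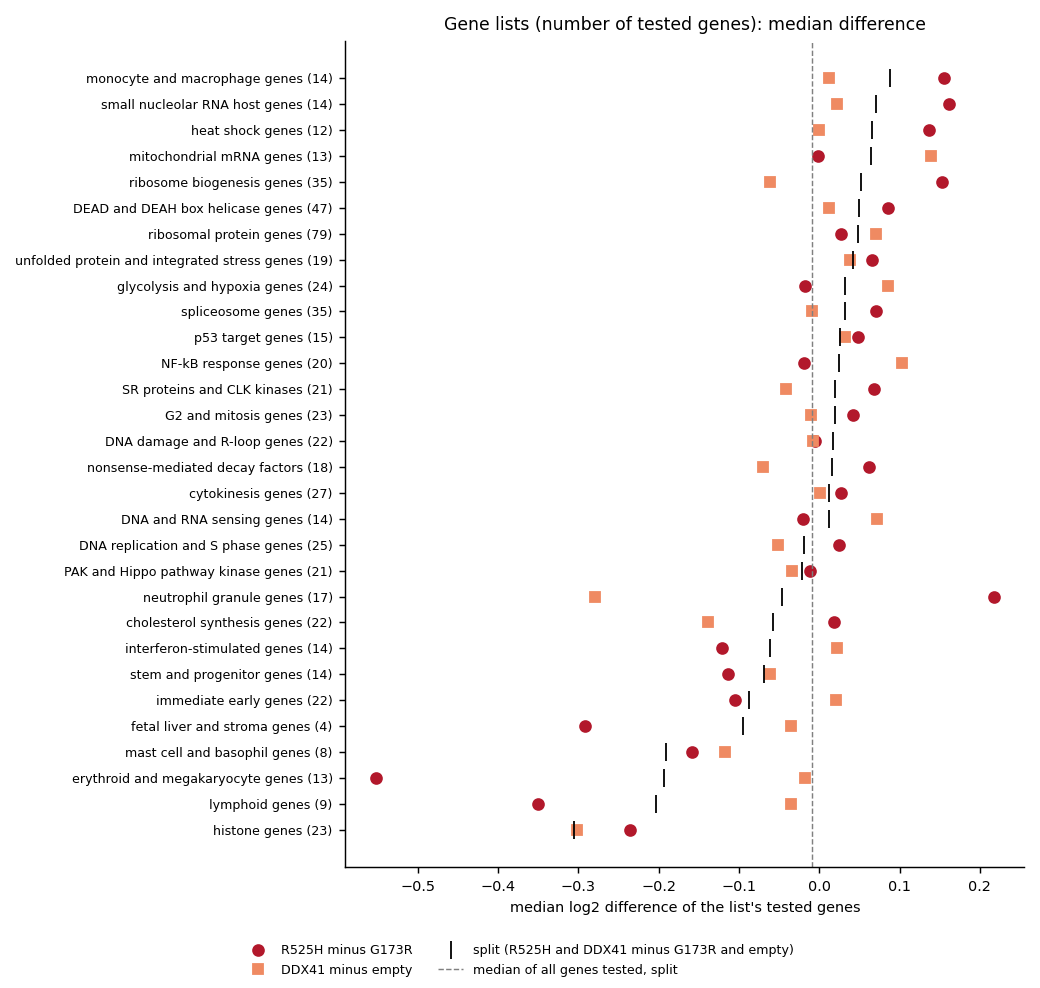
Median log2 difference over the tested genes of each of the 30 gene lists (number of genes in brackets), for R525H minus G173R (circles), DDX41 minus empty (squares) and the split of the pools (bars), with the median of all genes as a dashed line. Histone genes lay at -0.31 in the split, while neutrophil granule genes lay at 0.22 in R525H minus G173R and at -0.28 in DDX41 minus empty.

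The 2 groups of the first pool did not lie equally far from the second. Measured against the mean of G173R and empty, the DDX41 shift was between 47.9 percent (Snhg1) and 149 percent (Saa3) of the R525H shift over the 15 genes, with a median of 74.6 percent. R525H lay farther in 13 of the 15, all but Saa3 and Hnrnpa1. For Cep55 the shifts were -0.64 in R525H and -0.45 in DDX41, for Gas5 0.56 and 0.39, and for Igf2r 1.01 and 0.77. Clk3 shifted by 0.47 in R525H and 0.24 in DDX41, near the low end of the ratio.

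When the comparison was divided into 2 that share no library, the separating genes kept 1 direction, while the correlation over all genes was low. All 15 had the same sign in the 4 pairwise comparisons between a group of one pool and a group of the other, as the choice of the pools favours. Over 14189 genes, Pearson's r between R525H minus G173R and DDX41 minus empty was 0.05, and over the 8451 genes of at least 10 CPM it was 0.18. With the partners exchanged, R525H minus empty and DDX41 minus G173R gave 0.15 and 0.40. These are descriptions across genes, which are not independent replicates, and the paired libraries share their replicate numbers. Between replicate numbers the pool difference correlated at -0.02 (1 with 2), 0.05 (1 with 3) and 0.21 (2 with 3) over all genes. Over the genes of at least 10 CPM the values were 0.28, 0.32 and 0.54 in the same order. Without the libraries numbered 1, 2 genes were called, both with the same sign in number 1, and without number 2 or number 3 none was.

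**Figure D3:**
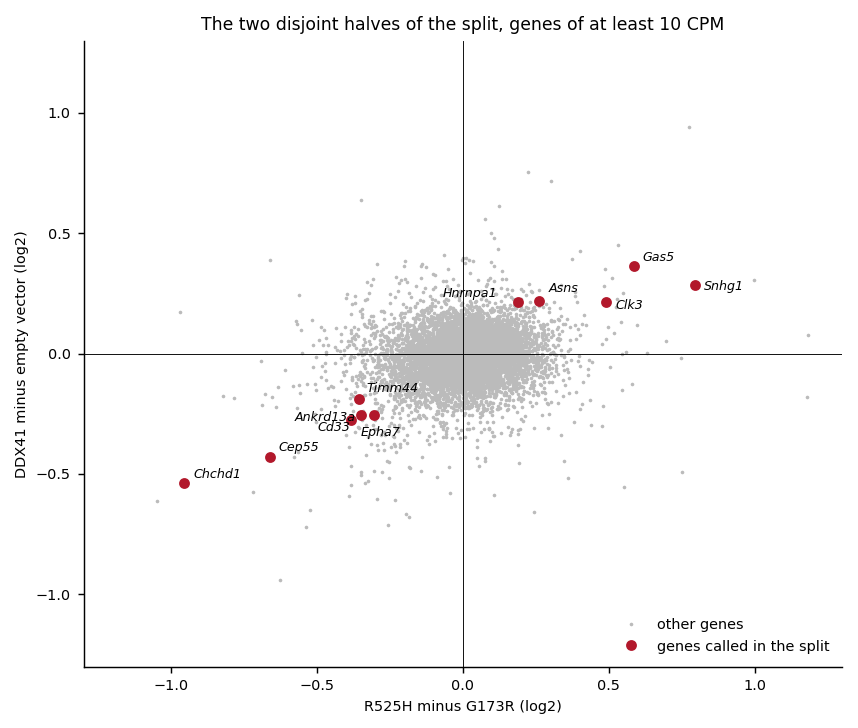
Log2 difference of R525H minus G173R (horizontal) against DDX41 minus empty (vertical) for 8451 genes of at least 10 CPM, with the 11 separating genes of that level named in red; 1 gene lies outside the axes. The named genes lie at the upper right and lower left, and the correlation over all 8451 genes is 0.18.

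A model with the 4 groups kept apart, which does not count the distance between R525H and DDX41 as error, called 82 genes for the same contrast (0.578 percent), 32 higher (0.226 percent) and 50 lower (0.352 percent), with all 15 among them. Of the 82, 25 (30.5 percent) also differed between R525H and DDX41, as did 1 of the 15 (6.67 percent) and 0.839 percent of all genes. The pool model counts that distance as error, so such genes were less likely to be among the 15. Stk4, a kinase of the Hippo pathway, had 259, 258 and 229 CPM in R525H and 390, 390 and 303 CPM in DDX41, against 451, 434 and 400 CPM in G173R and 435, 432 and 359 CPM in empty. Its R525H libraries lay below all others, DDX41 lay between in each number, and R525H and DDX41 differed by -0.53 (SE 0.05, edgeR adjusted p = 0.00177). Pak2, a kinase activated by small GTPases, was at 140, 134 and 132 CPM in R525H and 188, 186 and 170 CPM in DDX41, against 198, 199 and 181 CPM in G173R and 210, 190 and 194 CPM in empty. It fell by 0.42 on the log2 scale in R525H relative to DDX41 (SE 0.05, adjusted p = 0.00409). Mpo, myeloperoxidase of the primary granules, was in this set with DDX41 as the farther group, at 1780, 1790 and 737 CPM in R525H and 1580, 1530 and 601 CPM in DDX41, against 1960, 1950 and 825 CPM in G173R and 1960, 1990 and 901 CPM in empty.

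Within the first pool, R525H and DDX41 differed in 119 genes (0.839 percent), 55 higher (0.388 percent) and 64 lower (0.451 percent) in R525H, in edgeR's quasi-likelihood test with Benjamini-Hochberg adjustment. The count rested on the block and on single libraries. It was 0 without the replicate block, 6 without library 1 of DDX41 and 234 without library 3 of empty. Ms4a3, a membrane protein of granulocyte and monocyte progenitors, rose to 257, 237 and 113 CPM in R525H, against 146, 146 and 53.9 CPM in DDX41 (log2 0.85, SE 0.10, adjusted p = 0.00409). In each number R525H was above DDX41, but the groups overlapped because libraries numbered 3 were low in both. Cldn15, a tight junction claudin, rose by 1.04 (SE 0.13), Olfml2b, an olfactomedin-domain protein, by 0.88, Stfa1, a stefin of neutrophils, by 1.09, and Mrgpra2a by 0.90. Stfa1 and Mrgpra2a belong to families of near-identical copies and are uncertain as single genes. Sdc1, syndecan 1, fell to 28.5, 29.3 and 27.6 CPM in R525H, against 42.3, 43.2 and 50.1 CPM in DDX41 (log2 -0.66, SE 0.07, adjusted p = 0.00409), with no overlap. Mmp12, macrophage elastase, fell to 44.6, 53.1 and 43.8 CPM in R525H, against 74.4, 85.4 and 99.6 CPM in DDX41 (log2 -0.87). Clu, the chaperone clusterin, fell by 0.77, the BTB-domain gene Btbd2 by 0.72 and the kinase gene Prkcq by 0.71.

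**Figure D4:**
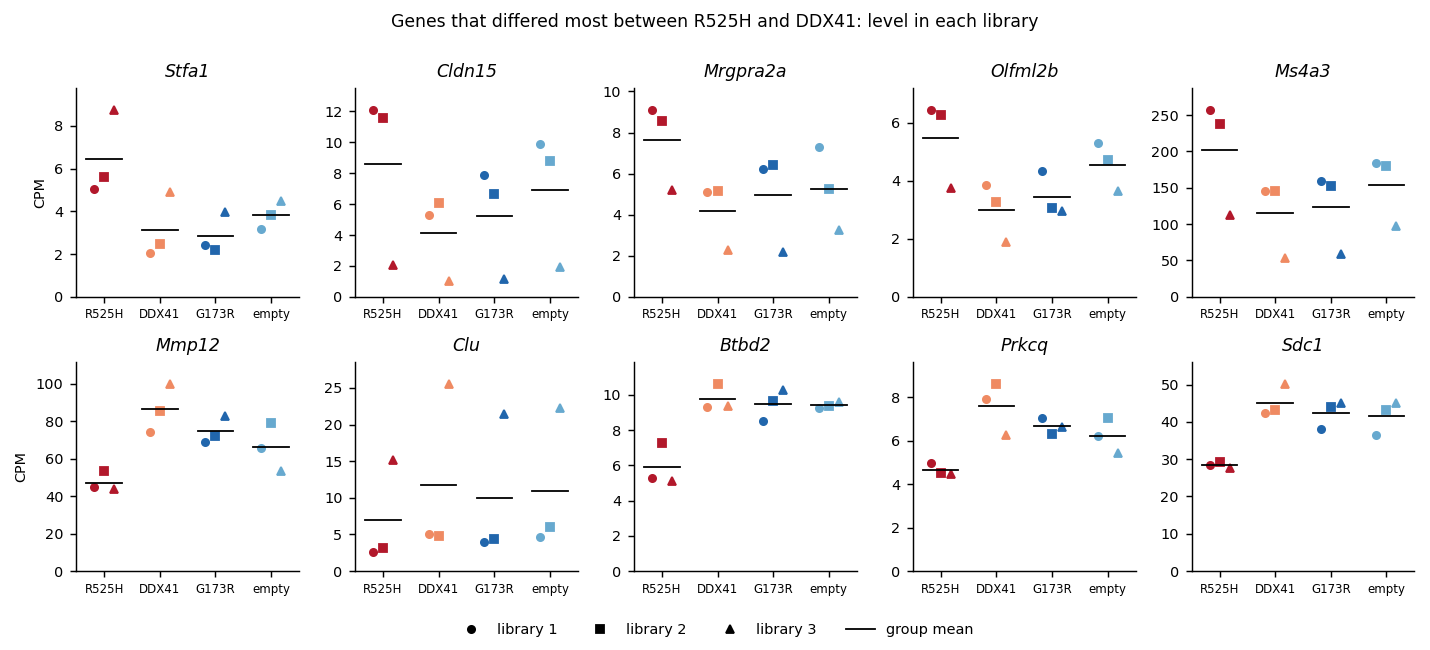
CPM by library of the 5 genes with the largest rise and the 5 with the largest fall in R525H relative to DDX41, with G173R and empty beside them (vertical axes from 0; bars are group means of 3). Sdc1 lay at 27.6 to 29.3 CPM in R525H, below every library of the other 3 groups.

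Within the second pool, G173R and empty differed in 1 gene (0.00705 percent). Of 14189 genes, 315 had an unadjusted p under 0.05 in the same edgeR test, where a share of 0.05 would by chance. As the pairing was proposed from these libraries, it may have favoured a low number here. The gene called, the predicted model Gm37401, had 0, 0 and 0.0282 CPM in G173R and 0.928, 0.63 and 1.3 CPM in empty, too low for a fold change to be read. The next by p were Galnt2, an enzyme that starts O-linked glycosylation, at 38.1, 40.6 and 40.2 CPM in G173R and 29, 26.5 and 26.3 CPM in empty, and Tlr4, the endotoxin receptor, at 103, 97.6 and 96.9 CPM in G173R and 116, 115 and 117 CPM in empty. Both had an adjusted p of 1 although their groups did not overlap. For the separating genes the 95 percent interval of G173R minus empty was, for example, -0.09 to 0.18 for Cep55 and -0.21 to 0.11 for Gas5. For Cd33 it was -0.15 to 0.16 and for Hnrnpa1 -0.09 to 0.13, where the differences between the pools were -0.30 and 0.20. The pool model counts the distance between G173R and empty as error. Genes with a small distance there were thus more likely to be called, and nothing is read from these intervals. Comparisons across the pools, which share their libraries with the split, called 187 genes for R525H against G173R (1.32 percent) and 93 for R525H against empty (0.655 percent). For DDX41 against empty and against G173R edgeR called none (0 percent), with 1024 and 798 of 14189 genes at an unadjusted p under 0.05. Whether these numbers of called genes differ was not tested.

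The size of the difference was also compared, as R525H minus G173R against DDX41 minus empty, and 21 genes passed (0.148 percent), 16 of them higher (0.113 percent) and 5 lower (0.0352 percent) in R525H minus G173R. Without the replicate block no gene passed. None of the 15 separating genes was among the 21, while 6 of the 82 genes of the 4-group model were (7.32 percent). The pool model counts distance within a pool as error, so genes of unequal difference were less likely to be among the 15. Flt3, the cytokine receptor of early progenitors, averaged 194 ± 18.5 CPM in R525H and 250 ± 8.02 CPM in DDX41, against 256 ± 9.88 CPM in G173R and 233 ± 23.3 CPM in empty (SD, n = 3 each). R525H lay below G173R by 0.40 and DDX41 above empty by 0.11, a difference of -0.51 (SE 0.07, edgeR adjusted p = 0.0224). Ptprs, a receptor phosphatase, had 97.1, 111 and 120 CPM in R525H and 142, 141 and 165 CPM in DDX41, against 158, 167 and 200 CPM in G173R and 159, 157 and 186 CPM in empty. It lay lower in both comparisons, and the difference of the differences was -0.51 (SE 0.07, adjusted p = 0.0224).

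The wild-type line was not used in the pooling, and 17.5 percent of 14548 genes differed between it and the mean of the 4 heterozygous groups. A gene chosen for a shift of R525H and DDX41 moves that mean by itself, so for the separating genes the log2 differences of the wild-type line are given from each pool, as a description. Cep55 was at 92.5, 97.3 and 86.6 CPM in the wild-type line, 0.48 above R525H and DDX41 and -0.06 from G173R and empty. The wild-type line was likewise level with G173R and empty for Chchd1 (0.74 from R525H and DDX41, 0.00 from G173R and empty), Ankrd13a (0.31 and 0.03), Clk3 (-0.39 and -0.03) and Hnrnpa1 (-0.26 and -0.05). Other genes set the wild-type line apart from both pools. Cth was at 0.843, 0.886 and 2.26 CPM in the wild-type line (-2.85 from R525H and DDX41, -2.16 from G173R and empty), and Asns at 98.8, 126 and 172 CPM (-0.94 and -0.69), each below its level in the same-numbered heterozygous libraries. Cd33 was at 497, 424 and 474 CPM (0.70 and 0.40) and Epha7 at 76.7, 67.5 and 60.6 CPM (0.72 and 0.39). Gas5, at 419, 284 and 340 CPM in the wild-type line, lay between the pools on average (-0.14 and 0.34).

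The tables also give a gene length that RSEM weights by the share of each isoform, and this second column was read after the counts had been seen. Because it belongs to the same contrast of pools, it is likewise a description. Over 8880 genes with a mean of at least 100 counts, 3 passed the threshold (0.0338 percent), all shorter in R525H and DDX41, namely Ybx1, Wdr45 and Fam149b. Ybx1, a cold-shock protein that binds mRNA, had a weighted length of 1415, 1406 and 1391 bases in R525H and 1450, 1446 and 1426 bases in DDX41, against 1561, 1562 and 1560 bases in G173R and 1552, 1543 and 1539 bases in empty. The pools did not overlap, the 3 R525H libraries were the shortest, and the wild-type line, at 1544, 1574 and 1552 bases, lay with G173R and empty. Wdr45, a beta-propeller protein of autophagy, had 1386, 1366 and 1361 bases in R525H and 1354, 1359 and 1346 bases in DDX41, against 1490, 1479 and 1457 bases in G173R and 1462, 1484 and 1453 bases in empty. It lay at 1439 to 1488 bases in the wild-type line, again outside the range of R525H and DDX41. Fam149b lay at 1970 to 2073 bases in R525H and DDX41 and at 2118 to 2219 bases in G173R and empty. None of the 3 separated by level, with log2 count differences of 0.05, -0.05 and -0.03, and none of the 15 separating genes was called by length. Between R525H and DDX41, and between G173R and empty, limma called no gene by length. Of 8880 genes, 497 and 354 had an unadjusted p under 0.05 there, where a share of 0.05 would by chance. The column does not say which isoforms differ. Fragment length, which overlapped between the pools but differed in median as given above, enters RSEM's estimates. Its part in these lengths was not tested.

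**Figure D5:**
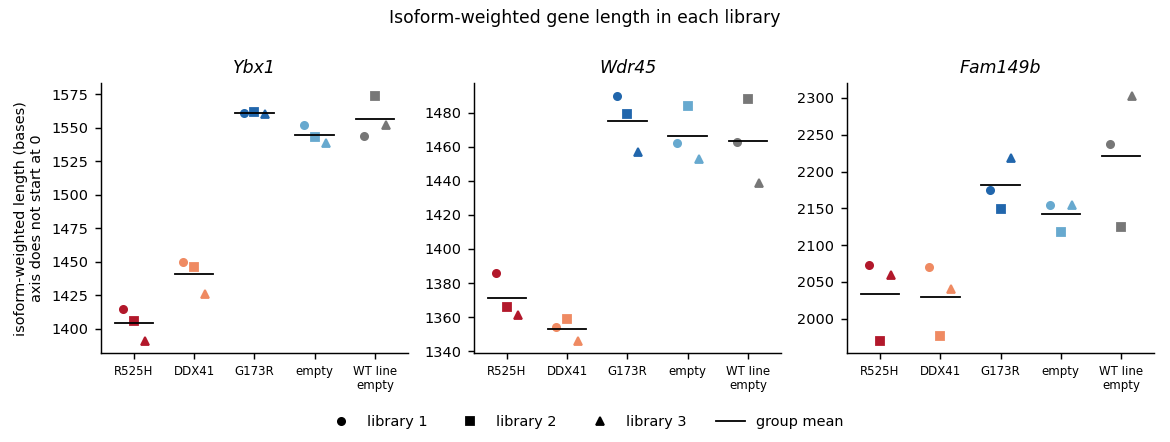
Isoform-weighted gene length in bases of Ybx1, Wdr45 and Fam149b by library (vertical axes do not start at 0; bars are group means of 3). R525H and DDX41 lie below G173R, empty and the wild-type line, for Ybx1 at 1391 to 1450 bases in R525H and DDX41 and 1539 to 1562 bases in G173R and empty.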

How the data were processed

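RNA of 15 samples was sequenced from stranded total RNA libraries after ribosomal RNA depletion, per the labels' protocols. The authors deposited 1 table per sample, made with RSEM per the submitters' processing notes. The aligner, the build and the RSEM version were not given in the sources used here. The columns include, per the file headers, the expected count, an estimate that can be fractional (6.26 to 6.92 percent of genes per library), the isoform-weighted length in bases (listed as another unit), and TPM as normalized by the authors. FPKM was not used. TPM served for markers only.

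Expected counts were rounded and tested with edgeR 4.0.16 (R 4.3.3) by quasi-likelihood, with TMM factors of 0.9792 to 1.044, filterByExpr by group (14189 of 55359 genes, 99.94 to 99.97 percent of counts) and the replicate number as a block. The pool contrast used a model with the pool as factor, the orthogonal contrasts a 4-group model (12 libraries), and the wild-type line a 5-group model (15 libraries, 14548 genes). P-values were adjusted over all genes tested, with 0.05 as the threshold. Levels are CPM on scaled totals. Levels of the wild-type line are on the scale of the 15-library model. Lengths were tested with limma 3.58.1 on the log2 scale. On counts simulated for the pool contrast over 14189 genes, 27 of 50 genes changed by 0.3 (log2), 48 of 50 changed by 0.5 and 50 of 50 changed by 0.8 were recovered, with 10 false among 185 calls. The simulation fixed the pools beforehand and put no difference between the groups of a pool. It therefore checks the procedure and does not give the share of false calls for pools chosen on the data.

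The members, the 30 lists and the tests were chosen with earlier results of these data known, so lists are described by counts and medians. Genes were named by a rule: Ddx41; up to 12 genes per direction called in the split, with at least 5 CPM in the higher pool and the pools apart in each number; up to 4 genes of a list with 3 or more calls, otherwise up to 2; and 5 genes per direction of each other contrast. The largest changes in the wild-type line are not described. Slc7a11, Mpo, Snhg8, Ptgs2, Tapt1 and Nwd1 were named after their values were seen. Replicate numbers come from the titles; over 18 pairs of same-numbered libraries of the heterozygous groups, deviations correlated at -0.02 to 0.73 (median 0.37), and 2 pairs, both with library 1 of the empty group, were at or under 0.1. The block was used because the comparison was defined with it. Promoter windows are RefSeq's on GRCm38.p6, matched by symbol for 14 of the 15 genes.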

Additional observations from a re-analysis of the deposited data

Results flagged for a closer look

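The difference between R525H and G173R was compared with that between DDX41 and empty, and the 10 genes named here differed between these 2 comparisons by edgeR's test of the difference itself. The log2 difference of the differences was 1.55 for Stfa1, 1.49 for Cldn15, 1.24 for Ms4a3, 1.11 for Mrgpra2b and 0.79 for Gda, guanine deaminase. It was -0.69 for Sdc1, -0.60 for Stk4, -0.51 for Flt3, -0.51 for Ptprs and -0.43 for Anxa6, a calcium-dependent membrane-binding protein. The adjusted p ran up to 0.0487 (Anxa6). Stfa1 and Mrgpra2b belong to families of near-identical copies. In 30 groups of 6 libraries, each of the 15 separating genes in either pool, no library lay far enough from the others to stand out. The limit is one that about 1 in 20 groups would pass by chance. That rate does not apply here, because a small spread within the pools favoured the choice of these genes.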

How the results depend on the processing

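No log2 difference reversed under the alternatives run for the 15 genes of the split, the 10 named between R525H and DDX41, the 3 between G173R and empty, the 10 of the difference of the differences and the 3 lengths. For the 15 genes this was fixed in advance, since their pools lay apart in each replicate number. The genes of the other sets were also chosen for their differences in these data, so nothing is read from the lack of reversals. Other named differences in level were not computed under the alternatives. The number of calls moved widely. Without the replicate block, 2 genes were called higher and 1 lower in R525H and DDX41 (8 and 7 with it), 0 between R525H and DDX41 (119), 0 between G173R and empty (1), 0 for the difference of the differences (21) and 1116 for the wild-type line (2539). As not every same-numbered pair deviated together, the block rests on the titles. DESeq2 1.42.0 called 147 higher and 117 lower, 291, 2 and 139 for the first 4 comparisons, and counts without a filter gave 177 and 279, 233, 6 and 94. Both sets hold all 15 genes, and 449 of the 456 unfiltered calls pass the filter. The 4-group model called 32 higher and 50 lower. Without the DDX41 group 72 higher and 137 lower were called, without R525H 1 and 2, and without G173R or without empty 0 and 0. The cause was not tested. With single libraries or whole replicate numbers left out, calls ranged from 0 to 11 higher and 0 to 9 lower, from 0 to 234 between R525H and DDX41, 0 to 3 between G173R and empty, 0 to 49 for the difference of the differences, 1262 to 2752 for the wild-type line and 2 to 4 by length. Without library 1 of DDX41, 6 genes were called between R525H and DDX41. Without library 3 of empty, 234 were. Without library 2 of R525H or of G173R, 3 higher and 3 lower were called in the split. Cep55, Gas5, Igf2r, Chchd1, Saa3 and Ankrd13a were called in all 12 single omissions, Hnrnpa1 in 0. With whole replicate numbers included there were 15 omissions. Cep55 and Gas5 were called in 13 of these, and Igf2r, Chchd1, Saa3 and Ankrd13a in 12, so in no omission of a whole number. Ybx1 and Wdr45 stayed past the threshold by length in 12 of 12 and Fam149b in 0. The histone median lay between -0.44 and -0.13. In counts simulated for the pool contrast, with pools fixed beforehand and no difference inside a pool, 27 of 50 differences of 0.3 were recovered.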
